A study of Mus musculus with 6 samples.

Results

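The retinoblastoma (pocket) proteins and the E2F transcription factors were examined in haematopoietic stem cells (HSC) of Lig4mut mice and of their wild-type (WT) littermates. The genes are Rb1, Rbl1, Rbl2, E2f1, E2f2, E2f3, E2f4, E2f6 and Tfdp1. They were taken by name, as every probe set that the array's annotation assigns to exactly 1 of these genes, which gave 19 probe sets for the 9 genes out of 34945 such probe sets for 18193 genes. The Lig4mut group holds 3 arrays of HSC from mice carrying the mutant Lig4 allele, and the WT group 3 arrays of HSC from Lig4+/+ littermates out of the same intercross of heterozygotes. All mice were 6 to 8 weeks of age, and HSC were taken from bone marrow by sorting for the CD150+ CD48- KSL phenotype. Lig4 encodes DNA ligase IV, the enzyme that joins broken DNA ends in non-homologous end joining. Neither the nature of the mutation nor the mouse strain is stated in the labels. The arrays are described as biological replicates, and the sources used here do not say whether 1 of them is 1 mouse or a pool, so p-values measure the spread between these arrays.

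Pocket proteins bind E2F factors on the promoters of cell cycle genes and keep them silent. When cyclin-dependent kinases phosphorylate the pocket proteins, the E2F factors are freed and genes for DNA synthesis are transcribed. Most adult HSC rest outside the cell cycle, a state in which p130, the product of Rbl2, sits with E2f4, a DP partner and the MuvB core in the DREAM complex. Several of these genes are themselves known E2F targets.

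The sequence at the transcription start is shown for Rbl2 and Tfdp1, the members with lower values and separate genotypes at their brightest probe set, and for Rbl1 and E2f2, which carry the E2F motif in this window. The windows run from 250 bases before to 50 bases after a RefSeq start (GRCm38.p6), 5′ to 3′ on the gene's strand. Capitals mark an exact match to TTTCCCGC, TTTCGCGC, TTTGCCGC or TTTGGCGC, searched on both strands. Rbl2 lies on the plus strand (chr8:91069807-91070106), Tfdp1 on the plus strand (chr8:13338501-13338800), Rbl1 on the minus strand (chr2:157204485-157204784) and E2f2 on the plus strand (chr4:136172024-136172323).
Rbl2: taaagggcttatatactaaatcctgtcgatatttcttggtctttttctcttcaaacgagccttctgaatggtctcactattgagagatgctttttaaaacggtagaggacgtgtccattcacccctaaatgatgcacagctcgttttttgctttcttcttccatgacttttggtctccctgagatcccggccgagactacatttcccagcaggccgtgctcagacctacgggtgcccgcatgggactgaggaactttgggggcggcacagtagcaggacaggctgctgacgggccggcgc
Tfdp1: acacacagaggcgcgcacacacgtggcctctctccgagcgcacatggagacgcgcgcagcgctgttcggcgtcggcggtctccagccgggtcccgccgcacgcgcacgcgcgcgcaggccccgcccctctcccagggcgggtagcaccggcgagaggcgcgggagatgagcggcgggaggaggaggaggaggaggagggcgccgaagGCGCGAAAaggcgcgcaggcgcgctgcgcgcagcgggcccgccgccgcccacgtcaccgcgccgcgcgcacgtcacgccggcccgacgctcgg
Rbl1: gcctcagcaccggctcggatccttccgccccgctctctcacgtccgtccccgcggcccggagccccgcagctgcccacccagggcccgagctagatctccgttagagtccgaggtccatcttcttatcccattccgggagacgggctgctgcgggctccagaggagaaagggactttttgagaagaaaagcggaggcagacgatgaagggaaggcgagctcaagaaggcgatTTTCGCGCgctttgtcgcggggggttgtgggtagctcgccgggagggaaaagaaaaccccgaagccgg
E2f2: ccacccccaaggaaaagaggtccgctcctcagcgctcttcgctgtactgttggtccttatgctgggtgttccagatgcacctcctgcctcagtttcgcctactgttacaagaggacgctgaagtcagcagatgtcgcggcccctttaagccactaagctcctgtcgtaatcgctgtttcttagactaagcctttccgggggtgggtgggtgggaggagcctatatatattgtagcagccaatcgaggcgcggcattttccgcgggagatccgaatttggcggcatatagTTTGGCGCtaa
Tfdp1 holds 1 motif on the opposite strand, which starts at base -43 from the listed start and reads TTTCGCGC on that strand. The Rbl1 window has TTTCGCGC at base -18 and that of E2f2 has TTTGGCGC at base +40, both on the gene's own strand. The window of Rbl2 holds none of these letters. RefSeq windows were at hand for 7 of the 9 genes, and 4 of the 7 (also E2f3, with TTTCCCGC on the opposite strand at base -11) had a motif in at least 1 window, against 2.60% of all 27025 genes with a window. Rb1 and E2f4 had no entry, and the only E2f1 window lies wholly inside the annotated gene. A match is a description of the letters and not evidence of binding.

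The authors deposited RMA values on the log2 scale, 1 per probe set, with a floor at exactly 3 that no probe set of the 9 genes reached on any array. Array medians as deposited lay between 5.97 and 6.05 in Lig4mut and between 6.29 and 6.34 in WT. The deposited distributions thus differed by genotype, and the sources used here do not say whether all arrays were processed together. The values were therefore quantile normalized across the 6 arrays, and all levels below are on that log2 scale. This step does not remove shifts of single probe sets. A processing difference between the genotypes would coincide with genotype, and the 2 cannot be told apart here. In it the median Lig4mut minus WT difference of all genes was 0.18, against 0.02 in the values as deposited, 0.33 with arrays centred on their medians and 0.09 with cyclic loess. Lig4 itself, which has 1 probe set, was at 3.10 to 4.97 in Lig4mut and at 6.66 to 7.63 in WT. The 8 measured HSC markers averaged 9.07 to 9.86 in Lig4mut and 10.18 to 10.28 in WT. Of the 8, 7 had lower values in Lig4mut, where 38.6% of all genes did. Kit, the receptor that gives the KSL gate its K, was at 9.56 to 10.35 in Lig4mut and 10.70 to 10.95 in WT, without overlap. Meis1 and Hlf, transcription factor genes of HSC, did not overlap either and differed by -1.65 and -1.44. These 3 of the 8 markers lay wholly lower, where 5.65% of all genes did. Mecom (-0.64) and Procr (-0.42) were lower with overlap. So were Flt3 (-0.75) and Cd34 (-0.18), which the list also held and which are not specific to HSC of this sort. Slamf1, which encodes the CD150 of the sort, was the marker without a lower value, at 8.89 to 10.71 in Lig4mut and 9.17 to 10.17 in WT. Lig4mut replicate 2 stood apart with a mean of 10.96 over 10 granulocyte markers, against 6.31 and 6.97 in the other Lig4mut arrays and 7.51 to 8.64 in WT. Levels of Y-linked genes showed a female pattern in Lig4mut replicate 2 and WT replicate 3 and a male pattern in the other arrays, so each genotype held 1 female and 2 male patterns.

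Across the group, the pocket protein gene Rbl2 and the dimerisation partner gene Tfdp1 had lower values in Lig4mut HSC, without overlap. The other genes overlapped between the genotypes at their brightest probe set. Relative to the median of all genes, E2f1 (0.83) and E2f2 (1.06) were higher and E2f3 (-0.62) and E2f6 (-0.65) lower. Rb1, Rbl1 and E2f4 lay between -0.25 and 0.34. None of the 19 probe sets passed the threshold of an adjusted p of 0.05 (limma, Benjamini-Hochberg over all 34945 probe sets, of which 0.00286% passed). At an unadjusted p under 0.05 there were 5 of 19 (26.3%), against 17.5% of all probe sets. Of the 5, 3 were lower in Lig4mut, where the background in that direction was 5.30%, and 2 were higher, where it was 12.2%. With 1 probe set per gene, the brightest, 0 of 9 genes passed (0.0110% of all genes did) and 2 of 9, both lower, lay at an unadjusted p under 0.05 (22.2%, against 4.18% of all genes for lower values and 19.7% in either direction). The median difference was -0.07 over the 9 genes and 0.18 over all genes.

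**Figure D1:**
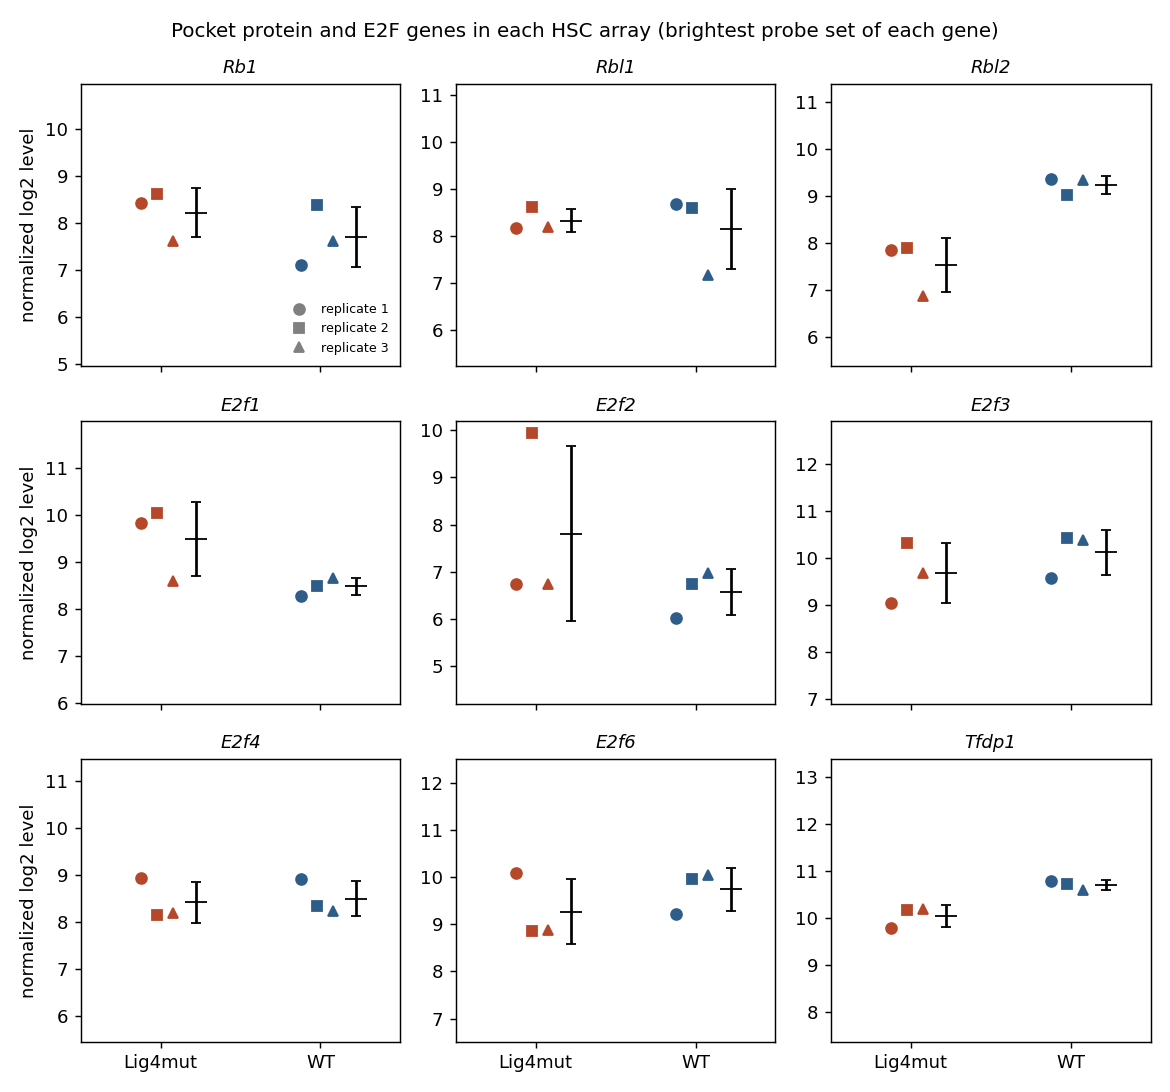
Normalized log2 level of the brightest probe set of each of the 9 genes, in 3 Lig4mut and 3 WT arrays, with symbols for the replicate number. Bars are the mean and SD of each genotype. The Lig4mut arrays lie below all WT arrays for Rbl2 and Tfdp1, and 1 Lig4mut array stands far above the rest for E2f2.

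Rbl2 encodes p130, the pocket protein that is most abundant in resting cells. Its brightest probe set had levels of 7.85, 7.89 and 6.87 in Lig4mut replicates 1, 2 and 3, against 9.36, 9.02 and 9.33 in WT. All Lig4mut arrays lay below all WT arrays, with a gap of more than 1 log2 unit between the nearest arrays of the genotypes. Lig4mut minus WT was -1.70 ± 0.33 on the log2 scale (SE, 3 arrays per genotype), which is 3.25-fold lower, with a 95% interval from -2.54 to -0.86 (limma, adjusted p = 0.135). The other probe set gave a close value. It was at 6.76, 6.34 and 6.91 in Lig4mut and at 8.31, 8.86 and 7.80 in WT, again with no overlap, and differed by -1.65 ± 0.33 (95% interval -2.49 to -0.82, limma, adjusted p = 0.139). Both probe sets are of the kind whose probes match several transcripts of the same gene. By unadjusted p they ranked 875 and 948 among 34945 probe sets.

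The lower Rbl2 level was present in each replicate and under each scaling. Relative to the median of all genes, the gene differed by -1.88 with quantile normalization, -1.84 both as deposited and with arrays centred on their medians, and -1.81 with cyclic loess. Between arrays with the male pattern (2 Lig4mut and 2 WT) the brightest probe set differed by -1.83, and between the arrays with the female pattern (1 of each) by -1.44. Without any 1 array the difference stayed between -1.88 and -1.37, and the mean of both probe sets differed by -1.68 (limma, adjusted p = 0.11). Markers of other cells also separated the genotypes, and their counts at an unadjusted p under 0.05 stand against 15.5% of all genes for higher and 4.18% for lower values. The mean of 10 macrophage and dendritic cell markers was 6.98 to 7.35 in Lig4mut and 6.21 to 6.56 in WT. Of the 10, 6 lay at an unadjusted p under 0.05, all higher. Itgax was higher with overlap (0.30), while Cd68 (-0.14), Ly86 (-0.09) and Adgre1 (-0.05) were lower with overlap. The mean of 9 B cell markers was 6.15 to 6.97 in Lig4mut and 5.95 to 6.01 in WT, with 4 of 9 at that level, all higher. T and NK cell markers averaged 5.47 to 6.32 in Lig4mut and 5.03 to 5.43 in WT, with 3 of 7 at that level, all higher. The HSC markers given above had 2 of 8 at that level, both lower. By mean level, those 3 T and NK markers lay at percentiles 7.2 to 21.4 of all genes. The 4 B cell markers lay at 34.0 to 65.5, and the 6 macrophage and dendritic cell markers at 30.0 to 88.6. With dim genes left out, the median difference of all genes was 0.03, against 0.18. The marker lists were not compared under other scalings. Erythroid markers averaged 6.21 to 6.44 in Lig4mut and 6.07 to 6.27 in WT, megakaryocyte and platelet markers 7.42 to 7.93 in Lig4mut and 7.41 to 7.79 in WT, and endothelial and stromal markers 7.80 to 9.26 in Lig4mut and 6.90 to 8.55 in WT, which overlap. At an unadjusted p under 0.05 (limma) lay 2 of 8, 1 of 9 and 1 of 10 of them in that order, all higher. Among the granulocyte markers it was 0 of 10. Of all these markers 1, the B cell gene Ms4a1, was at the floor, in Lig4mut replicate 1. The part of other cells in the Rbl2 difference was not tested, and in sorted bulk samples fewer cells of a type and less RNA per cell cannot be told apart.

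Rb1 encodes pRb, the founding pocket protein, which binds the activator E2F factors. Its probe sets went in opposite directions. The brighter one was at 8.44, 8.61 and 7.63 in Lig4mut and at 7.10, 8.38 and 7.62 in WT, so that the genotypes overlapped. It differed by 0.52 ± 0.44 (95% interval -0.60 to 1.64, limma, adjusted p = 0.596). It was 0.22 without WT replicate 1 and 0.33 without Lig4mut replicate 2, but 0.86 without WT replicate 2 and 0.82 without Lig4mut replicate 3. The dimmer one, in the lowest 40% of probe sets by mean level, was at 4.59, 5.69 and 4.83 in Lig4mut and 5.38, 6.34 and 5.90 in WT and differed by -0.84 ± 0.40 (95% interval -1.86 to 0.19, adjusted p = 0.363). The mean over both was -0.16, so the direction of Rb1 depended on the probe set.

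Rbl1 encodes p107, the pocket protein that is itself made under E2F control in cycling cells. It has 4 probe sets, 3 with higher and 1 with lower values in Lig4mut. The brightest was at 8.16, 8.61 and 8.19 in Lig4mut and at 8.68, 8.60 and 7.16 in WT, and differed by 0.18 ± 0.47 (95% interval -1.02 to 1.38, limma, adjusted p = 0.892). WT replicate 3 decided that sign, since the difference was -0.32 without it. Between arrays with the male pattern it was -0.46 and between those with the female pattern 1.45. A dim probe set of the gene separated the genotypes, at 4.96, 5.14 and 4.61 in Lig4mut and at 4.23, 3.64 and 4.31 in WT. It differed by 0.84 ± 0.25 (95% interval 0.19 to 1.49, adjusted p = 0.209) and lay at percentile 18.3 of all probe sets by mean level. The remaining probe sets ranged within a genotype by over 2 log2 units, from 5.78 to 9.0 in Lig4mut and 5.70 to 8.19 in WT for the brighter of the pair, and from 4.91 to 7.96 in Lig4mut and 4.97 to 8.06 in WT for the other. Their 95% intervals, -2.99 to 2.80 and -2.69 to 3.36, include changes in either direction.

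**Figure D2:**
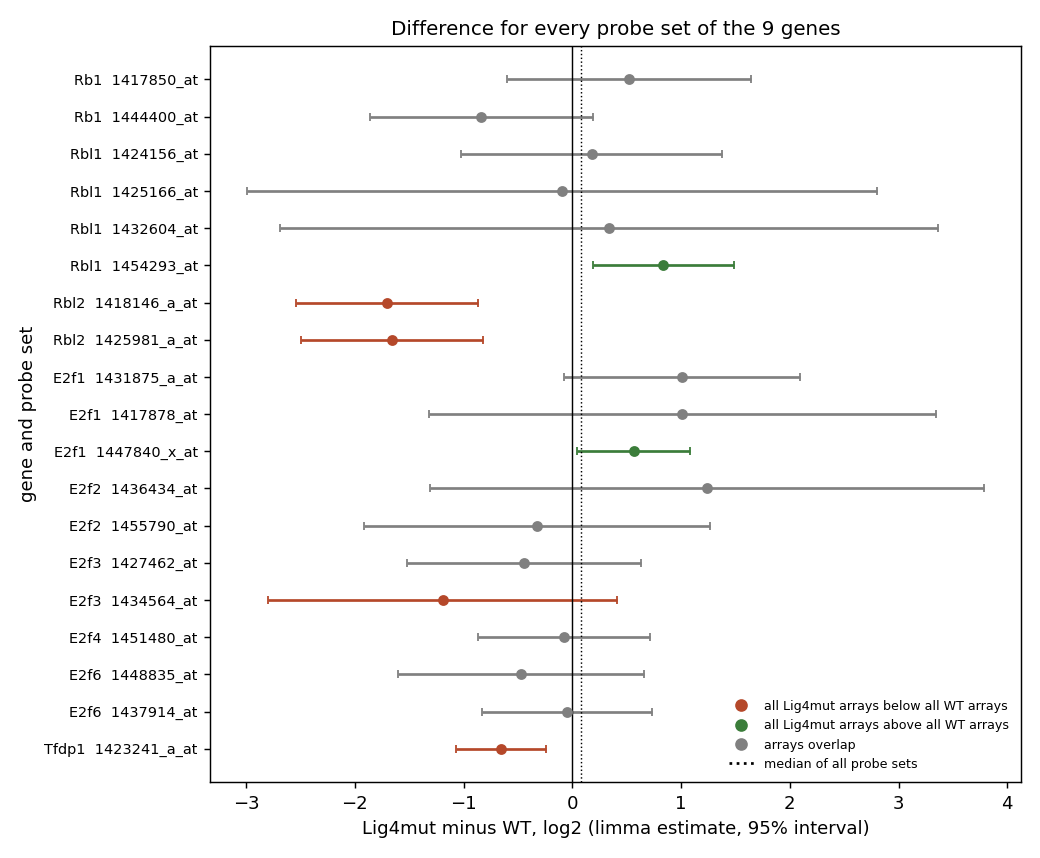
Lig4mut minus WT difference on the log2 scale (limma estimate with its 95% interval, n = 3 per genotype) for each of the 19 probe sets, coloured by whether the arrays of the genotypes overlap. Both probe sets of Rbl2 lie below -1.6, and the probe sets of Rb1, Rbl1 and E2f2 fall on both sides of 0.

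E2f1 encodes the activator E2F that is set free when pRb is phosphorylated, and it can also induce cell death genes. All 3 of its probe sets had higher values in Lig4mut. The brightest was at 9.83, 10.05 and 8.60 in Lig4mut replicates 1, 2 and 3 and at 8.29, 8.50 and 8.66 in WT. Lig4mut replicates 1 and 2 lay above every WT array, while replicate 3 fell among them. The difference was 1.01 ± 0.42 (95% interval -0.08 to 2.09, 2.01-fold, limma, adjusted p = 0.313). It was 1.45 without Lig4mut replicate 3 and 0.73 without Lig4mut replicate 2. The next probe set followed the same order of arrays in Lig4mut, with 8.04, 9.13 and 6.11, against 5.77, 7.10 and 7.37 in WT, and differed by 1.01 ± 0.91 (adjusted p = 0.623). This value ranged from 0.33 without Lig4mut replicate 2 and 0.52 without WT replicate 1 up to 1.84 without Lig4mut replicate 3. The dimmest one did not overlap between genotypes, at 6.91, 6.35 and 6.73 in Lig4mut and 6.34, 5.99 and 5.97 in WT, although the nearest arrays differed by under 0.1. It differed by 0.57 ± 0.20 (95% interval 0.04 to 1.09, adjusted p = 0.259), while the deposited values gave 0.25. Its probe set is of the kind whose probes can also match other genes. Between arrays with the male pattern the brightest probe set differed by 0.82, and between those with the female pattern by 1.39.

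E2f2, an activator E2F with a part in blood cell proliferation, was high in a single Lig4mut array. Its brighter probe set was at 6.74, 9.95 and 6.74 in Lig4mut and at 6.02, 6.73 and 6.97 in WT. The difference of 1.24 ± 0.99 (95% interval -1.31 to 3.78, limma, adjusted p = 0.58) became 0.17 without Lig4mut replicate 2, the array with the high granulocyte markers. The other probe set did not show this peak, with 5.83, 6.74 and 5.58 in Lig4mut and 6.80, 5.20 and 7.12 in WT, and differed by -0.32 ± 0.62 (95% interval -1.91 to 1.27).

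E2f3, the activator E2F that acts with E2f1 and E2f2 in progenitor proliferation, had lower values in Lig4mut at both probe sets. The brighter was at 9.05, 10.31 and 9.68 in Lig4mut and at 9.57, 10.42 and 10.37 in WT, which overlap, and differed by -0.44 ± 0.42 (95% interval -1.52 to 0.63, limma, adjusted p = 0.638). Its size also rested on single arrays, with -0.13 without Lig4mut replicate 1, -0.76 without Lig4mut replicate 2, -0.72 without WT replicate 1 and -0.30 without WT replicate 2. With arrays centred on their medians it was -0.10. The dimmer was at 8.63, 6.38 and 8.19 in Lig4mut and at 8.83, 8.88 and 9.07 in WT, with no overlap, and differed by -1.19 ± 0.62 (95% interval -2.79 to 0.41, adjusted p = 0.4). Lig4mut replicate 2 set much of that size, since the difference was -0.52 without it. The mean of both probe sets differed by -0.82 (limma over all genes, adjusted p = 0.152). RefSeq lists 2 start windows for this gene, and the probe sets were not assigned to its isoforms here.

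**Figure D3:**
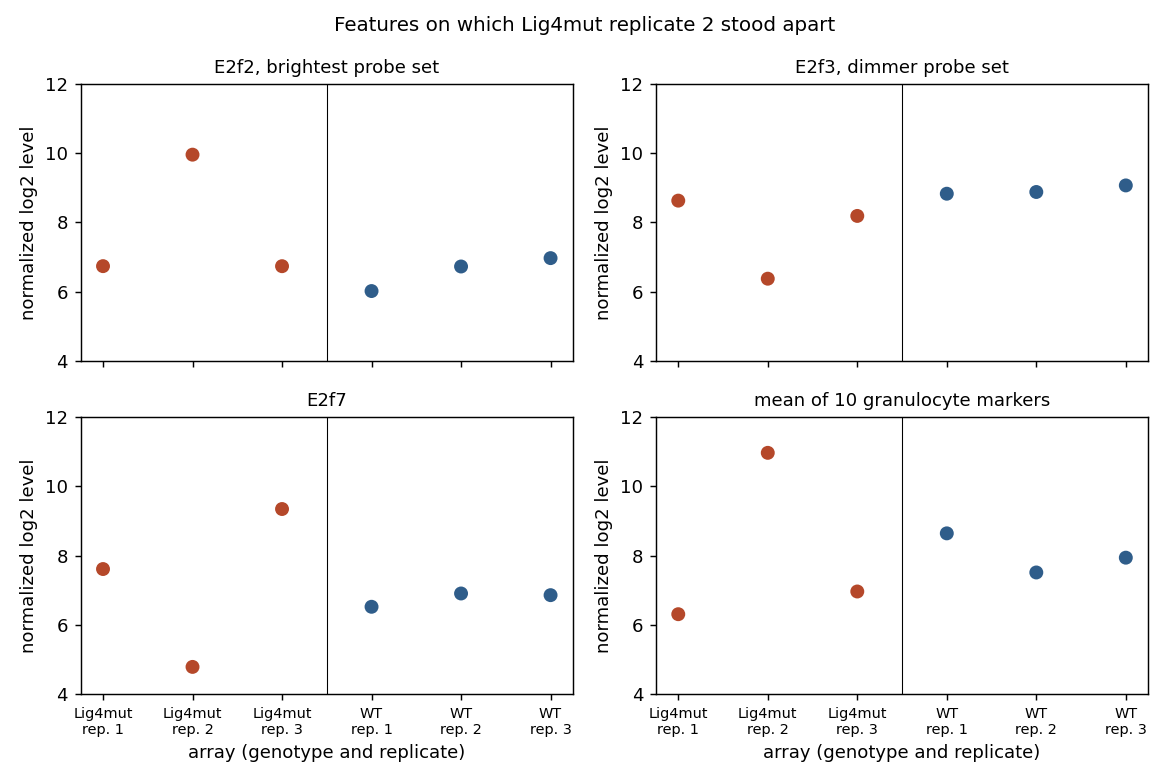
Normalized log2 level in each of the 6 arrays (Lig4mut on the left of each panel, WT on the right) of E2f2, of the dimmer E2f3 probe set, of E2f7 and of the mean over 10 granulocyte markers. Lig4mut replicate 2 is the highest array for E2f2 (9.95) and the granulocyte markers (10.96) and the lowest for E2f3 (6.38) and E2f7 (4.79).

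The repressor genes E2f4 and E2f6 overlapped between the genotypes at every probe set. E2f4, the main partner of p130 and p107 in resting cells, has 1 probe set, at 8.93, 8.15 and 8.18 in Lig4mut and 8.91, 8.33 and 8.24 in WT. The genotypes covered almost the same range, and the difference was -0.07 ± 0.31 (95% interval -0.87 to 0.72, limma, adjusted p = 0.942), or 0.14 with arrays centred on their medians. Its partner Rbl2 thus differed by -1.70 where E2f4 differed by -0.07, each with its own interval, and the difference between these genes was not tested. E2f6 has no pocket-binding region and represses with Polycomb proteins. Its brighter probe set was at 10.08, 8.87 and 8.87 in Lig4mut and 9.22, 9.97 and 10.05 in WT, and differed by -0.47 ± 0.44 (95% interval -1.60 to 0.66, adjusted p = 0.636). That value moved with single arrays, to -0.88 without Lig4mut replicate 1 (limma, unadjusted p = 0.0494), -0.74 without WT replicate 1 and -0.27 without Lig4mut replicate 2 or 3. It was -0.12 in male-pattern arrays and -0.18 with arrays centred on their medians. The dimmer differed by -0.05 ± 0.30, with levels of 5.30 to 5.92 in Lig4mut and 5.18 to 6.05 in WT.

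Tfdp1 encodes DP1, with which E2F factors pair to bind DNA. Its single probe set was at 9.78, 10.18 and 10.19 in Lig4mut and at 10.79, 10.73 and 10.60 in WT. All Lig4mut arrays lay below all WT arrays, and the SD was 0.233 in Lig4mut and 0.0993 in WT. The difference was -0.65 ± 0.16 (95% interval -1.07 to -0.24, 1.57-fold lower, limma, adjusted p = 0.166). Its size depended on the scaling more than that of Rbl2. In the gene-level fit the unadjusted p was 0.0105 with quantile normalization, 0.0134 as deposited, 0.0386 with cyclic loess and 0.197 with arrays centred on their medians, where the difference was -0.31. Relative to the median of all genes the values lay closer together, at -0.83 with quantile normalization and between -0.64 and -0.62 with the other scalings. Over 16 alternatives of the gene-level fit (limma), the unadjusted p was under 0.05 in 14 for Tfdp1 and in 16 for Rbl2. Tfdp1 was also not under 0.05 with dim genes left out, where 1 of the 9 genes, Rbl2, was. Between arrays with the male pattern the difference was -0.77, and between those with the female pattern -0.42. Some of the marker lists given for Rbl2 separated the genotypes, as Tfdp1 did, and the part of other cells in the Tfdp1 difference was not tested.

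**Figure D4:**
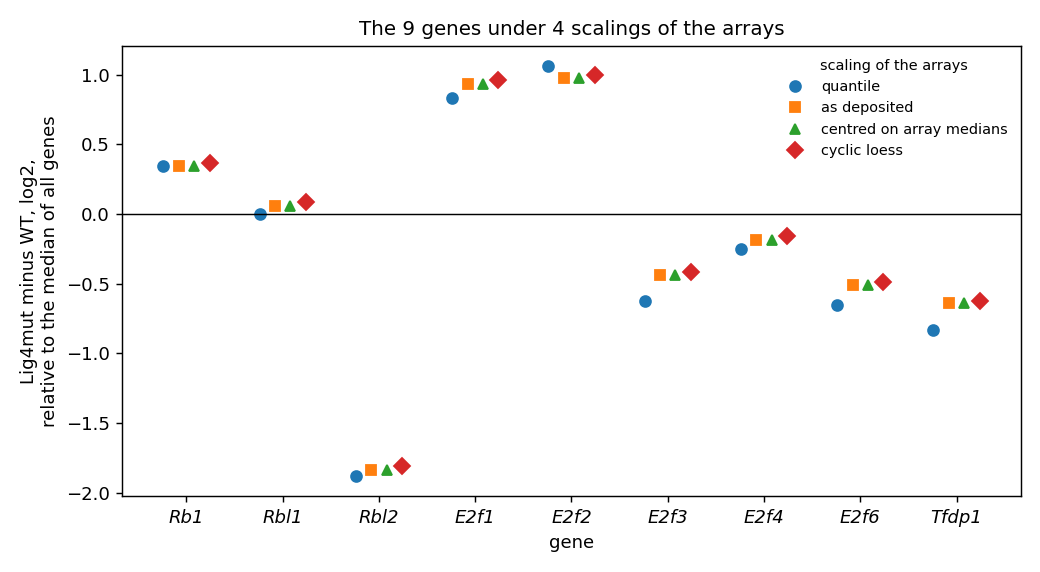
Lig4mut minus WT difference of each gene's brightest probe set on the log2 scale, minus the median difference of all genes, under 4 scalings of the arrays. Rbl2 lies between -1.88 and -1.81 under all 4, and Rbl1 lies near 0.

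Separation of the genotypes was read against its background. The 3 Lig4mut arrays lay wholly below the WT arrays in 4 of 19 probe sets, 2 of Rbl2 and 1 each of E2f3 and Tfdp1, where 7.13% of all probe sets did. They lay wholly above in 2 of 19, 1 of Rbl1 and 1 of E2f1, where 16.6% of all probe sets did. At the gene level 2 of 9 (Rbl2 and Tfdp1) were separate, both lower, against 5.65% of all genes for lower values, 21.0% for higher values and 26.7% in either direction. Of the 7 genes with several probe sets, 3 (Rbl2, E2f3 and E2f6) had all of them lower, 1 (E2f1) had all of them higher and 3 (Rb1, Rbl1 and E2f2) were split. The Lig4mut arrays varied more. Their SD was larger than that of the WT arrays in 7 of 9 genes, as it was in 69.9% of all genes, and the median SD of the 9 was 0.578 in Lig4mut and 0.46 in WT.

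The rest of the family also varied between the Lig4mut arrays. Of E2f5, E2f7, E2f8 and Tfdp2, 0 passed the threshold and 0 lay at an unadjusted p under 0.05, and their median difference was -0.33. E2f7, an atypical repressor that restrains E2f1, was at 7.61, 4.79 and 9.34 in Lig4mut and at 6.52, 6.91 and 6.86 in WT. E2f8, its close relative, was at 9.18, 6.91 and 10.05 in Lig4mut and at 8.66, 9.09 and 8.90 in WT, and its 2 probe sets had opposite signs. In both, Lig4mut replicate 2 was the lowest of all 6 arrays and Lig4mut replicate 3 the highest. Tfdp2, the other DP partner, was likewise lowest in Lig4mut replicate 2 (8.30) and highest in replicate 3 (11.21), against 9.71 to 10.16 in WT, and its 4 probe sets averaged -1.02, all lower. E2f5, which pairs with p130, differed by -1.10 ± 0.94.

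The list of the MuvB core, which builds DREAM with p130 and E2f4, also held Myb factors and the kinase Dyrk1a, which are not DREAM subunits. In this list 6 of 8 genes had lower values, where 38.6% of all genes did. The median was -0.14, and 0 of the 8 reached an unadjusted p under 0.05 (limma). Mybl2, the B-Myb factor that takes the place of p130 on MuvB in cycling cells, was at 5.23, 5.71 and 5.32 in Lig4mut and at 5.36, 8.26 and 7.89 in WT. WT replicate 1 lay among the Lig4mut arrays, and the difference was -1.75 ± 0.82 (limma, adjusted p = 0.317). Lin9 differed by -1.70 ± 1.30, with a range from 4.16 to 8.98 in Lig4mut and from 8.04 to 9.39 in WT. Lin52 differed by -0.42 ± 0.56 at its brightest probe set, but its 2 probe sets had opposite signs and averaged 0.15. Dyrk1a, the kinase that promotes DREAM assembly by modifying Lin52, differed by -0.20 ± 0.38 (its 3 probe sets averaged -0.98).

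Among the upstream kinases and cyclins, 6 of 12 had higher values, where 61.4% of all genes did. Of the 12, 1 lay at an unadjusted p under 0.05, where 15.5% of all genes were higher at that level. It was Cdk3, at 5.56, 5.60 and 5.87 in Lig4mut and 4.79, 5.29 and 5.13 in WT (0.61 ± 0.19, limma, adjusted p = 0.189). Cdk1, the mitotic kinase, did not overlap either, at 9.48, 9.47 and 10.24 in Lig4mut and 9.33, 9.28 and 8.96 in WT (0.54 ± 0.27). Ccne2, the cyclin E2 gene and an E2F target, differed by -1.36 ± 0.75, and Cdk4, the kinase partner of D cyclins, by -0.34 ± 0.25. Of the 7 Cdk inhibitors, 5 had higher values and 1, Cdkn2a, lay at an unadjusted p under 0.05 (0.60 ± 0.20, limma, adjusted p = 0.202). The shares of all genes were again 61.4% higher and 15.5% higher at that level. By mean level Cdkn2a lay at percentile 26.5 and Cdk3 at percentile 27.4 of all genes, both in the lowest 40%. Without those dim genes the median difference of all genes was 0.03, against 0.18. Cdkn1c, which encodes the p57 of resting HSC, differed by -0.77 ± 0.34, Cdkn1a, which encodes p21, by 1.03 ± 0.66 and Cdkn2b by 0.37 ± 0.25. None of these passed the threshold.

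**Figure D5:**
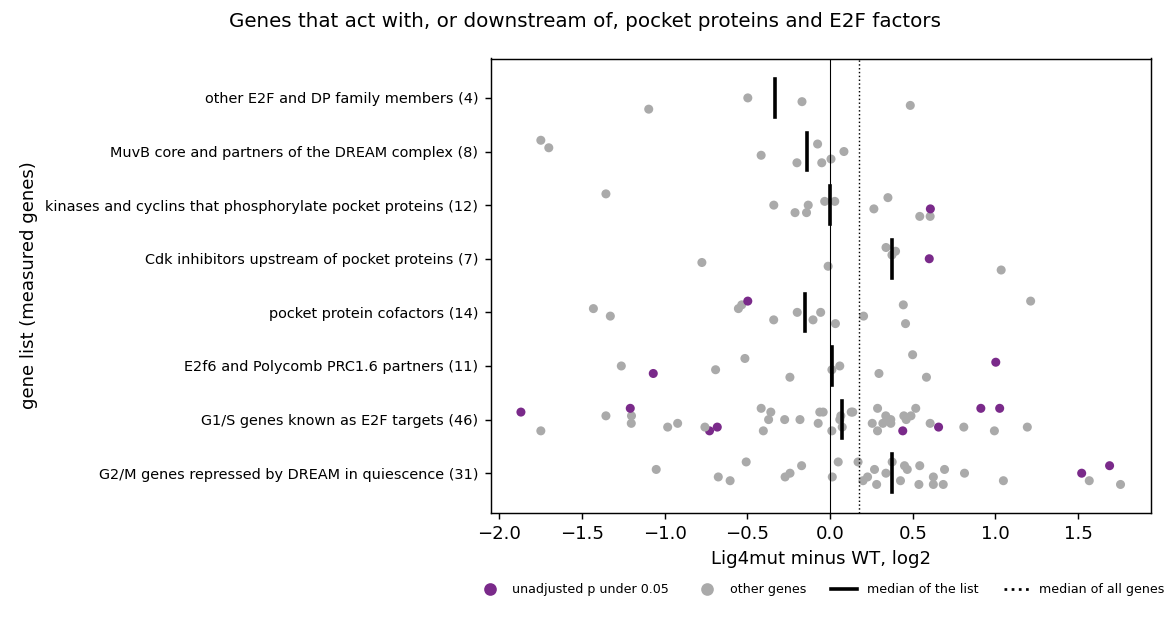
Lig4mut minus WT difference on the log2 scale of each measured gene in 8 lists around the pocket proteins, by the brightest probe set. Bars are list medians, the dotted line is the median of all genes (0.18), and purple points have an unadjusted p under 0.05. The G1/S genes spread from -1.87 to 1.19 around a median of 0.07.

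Genes known to be regulated by E2F factors in the G1/S transition went both ways. Of 46 measured, 26 had higher and 20 lower values, where 61.4% of all genes were higher. In each direction 4 lay at an unadjusted p under 0.05 (limma), and 0 passed over all genes. The shares at that level were 15.5% of all genes for higher and 4.18% for lower values. The median was 0.07, which is 0.11 below that of all genes, and its sign changed over the alternatives, from -0.11 to 0.36. Cdc45, a subunit of the replicative helicase, was at 8.48, 8.92 and 8.66 in Lig4mut and 7.53, 7.48 and 7.98 in WT, with no overlap (1.03 ± 0.21, adjusted p = 0.138). Ezh2, the Polycomb methyltransferase, differed by 0.91 ± 0.24 and Rfc4, a clamp loader subunit, by 0.66 ± 0.19, both with separate genotypes. Tipin, which stabilises replication forks, was at 8.79, 8.48 and 8.87 in Lig4mut and 9.51, 9.35 and 9.46 in WT, separate in the other direction (-0.73 ± 0.16, adjusted p = 0.139). The list's mean level was 9.05 to 9.19 in Lig4mut and 9.01 to 9.29 in WT, so the arrays overlapped.

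Late cell cycle genes that DREAM represses in resting cells had 24 of 31 with higher values, where 61.4% of all genes were higher. Their median was 0.38, or 0.20 above that of all genes. Of the 31, 2 lay at an unadjusted p under 0.05, both higher, a share below the 15.5% of all genes. Bub1b, a spindle checkpoint kinase, was at 9.69, 9.23 and 10.07 in Lig4mut and 7.72, 8.12 and 8.08 in WT (1.69 ± 0.26, limma, adjusted p = 0.125), and its 3 probe sets averaged 1.11. Hmmr, a spindle protein, differed by 1.52 ± 0.26, while its 5 probe sets averaged 0.33. Cdca8 differed by 0.69 ± 0.29 and Aspm by 1.76 ± 0.76, although the 5 probe sets of Aspm averaged 0.0084. The list's mean was 9.08, 8.14 and 9.01 in Lig4mut replicates 1, 2 and 3 and 8.21 to 8.55 in WT, so that replicate 2 lay below every WT array and the other Lig4mut arrays above them.

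The list taken for cofactors of pocket proteins had 9 of 14 genes with lower values, where 38.6% of all genes did, and a median of -0.15. It also held Rbpms (-0.34), an RNA-binding protein gene that is not such a cofactor. Smarca4, the Brg1 ATPase of SWI/SNF that acts with pRb, was at 10.12, 10.08 and 10.09 in Lig4mut and 10.45, 10.44 and 10.89 in WT, and was the single gene of the list at an unadjusted p under 0.05 (-0.50 ± 0.17, limma, adjusted p = 0.211), where 4.18% of all genes were lower at that level. The mean of its 2 probe sets was smaller, at -0.28. The corepressor gene Sin3a differed by -1.33 ± 0.68 (-0.87 over its 3 probe sets), Rbbp5 by 1.21 ± 0.83 and Smarca2 by -0.53 ± 0.37. Among 11 genes that act with E2f6 in a Polycomb complex, 6 had higher and 5 lower values, and the median was 0.01. Max, the E-box factor of that complex, was at 9.40, 8.91 and 9.07 in Lig4mut and 7.92, 7.84 and 8.62 in WT (1.00 ± 0.27, adjusted p = 0.164). Rnf2, its ubiquitin ligase, differed by -1.07 ± 0.35 at the brightest of 5 probe sets, and by 0.12 as their mean, with 3 of them higher. Yaf2 differed by -1.26 ± 0.72 and Ehmt2 by -0.69 ± 0.39, where the 2 probe sets of Ehmt2 had opposite signs and averaged -0.22.

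The genes whose levels followed Rbl2 most closely over the 6 arrays were Zfp628, Hspbp1, Caps2 and Sec11c, with Pearson's r between 0.989 and 0.997. These r values describe 6 arrays that include both genotypes, so they hold the genotype difference as well as the spread within genotypes, and 62 genes had r above 0.95. Zfp628 was at 6.20, 6.12 and 5.16 in Lig4mut and 8.09, 7.63 and 7.97 in WT, a difference of -2.07 ± 0.33 (limma, adjusted p = 0.129). For E2f1, the member with the smallest p among those with higher values, the closest were Pnpla1, Cenpt, Il4ra and Spef2, with r between 0.991 and 0.996, and 120 genes had r above 0.95. Cenpt, a kinetochore gene, was at 9.61, 9.87 and 8.93 in Lig4mut and 8.67, 8.78 and 8.90 in WT, with replicate 3 close to WT as for E2f1. Zfp628 and Cenpt were picked by r over these same arrays, so their likeness to Rbl2 and E2f1 followed from that choice.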

How the data were processed

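Gene expression was measured on 6 one-colour Affymetrix arrays, 3 Lig4mut and 3 WT, grouped by sample titles. The authors deposited log2 values, 1 per probe set; the submitters' processing notes name RMA, and neither its settings nor the floor are described in those sources. The series design text names a Nugen Ovation Pico kit for sample preparation, while the labels' protocols describe biotinylated cRNA. The number of arrays limits precision. Of 45101 probe sets, 64 controls, 932 naming several genes and 9160 with no entry were left out; 34945 naming 1 gene remained, of which 34741 symbols were updated through NCBI's GRCm38.p6 gene table. Differences (Lig4mut minus WT) were taken after quantile normalization and tested two-sided by lmFit and eBayes (limma 3.58.1, R 4.3.3), over all probe sets and over 18193 genes (brightest probe set), with Benjamini-Hochberg adjustment; values of the 9 genes are from the probe set fit and those of other genes from the gene fit. Normexp and detection filters need scanner files, not used here. The test was tried on simulated data. With 3 arrays against 3 an exact permutation test cannot go below 0.1, so none was run. Of each list up to 4 genes with the smallest p are named, with Lig4, and the 4 genes with the highest r to a member. The HSC markers, Ms4a1 and Rbpms were named after their values were seen. The genes and lists were chosen with earlier results of these data known. Alternatives covered scaling, dim features, moderation, array weights, the replicate number, sex pattern, probe sets and single arrays.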

Additional observations from a re-analysis of the deposited data

How the results depend on the processing

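No gene or probe set of the 9 genes passed the adjusted threshold under any alternative tried (limma; 5 of 19 probe sets and 2 of 9 genes at an unadjusted p under 0.05), and none of the 28 differences became significant. The counts at an unadjusted p under 0.05 became 2 of 16 probe sets and 1 of 9 genes with dim features left out. In that setting 12.4% of all probe sets and 13.3% of all genes lay at that level, so both counts were near the background. Over all genes, 2 passed; 0 passed with the Y-linked level as covariate, with dim features left out, with the mean of probe sets, in male-pattern arrays only (chosen after the data were seen) or without any 1 array (0 to 0), and 4 with trend and robust moderation. Over all probe sets, 1 passed; 0 passed with the Y-linked covariate, array weights, dim features left out, male-pattern arrays only or without any 1 array (0 to 0), 2 as deposited and 5 at a threshold of 0.1. Rbl2, Tfdp1, E2f1 and E2f3 kept their sign under every alternative at all of their probe sets. Signs turned where differences were small or probe sets disagreed. E2f4 was at 0.14 with arrays centred on their medians and between -0.33 and 0.13 without 1 array, and Rb1 at -0.16 as the mean of probe sets. Among Rbl1 probe sets, the brightest was at -0.46 in male-pattern arrays and -0.32 to 0.44 without 1 array, the next by level at 0.13 with the Y-linked covariate and -1.12 to 0.49 without 1 array, and the one after that at -0.83 in male-pattern arrays and -0.43 to 1.30 without 1 array. The dimmer probe sets of E2f2 and E2f6 ranged from -0.91 to 0.049 and from -0.25 to 0.19 without 1 array. The cause was not tested.

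Replicate numbers did not pair the arrays: deviations of same-numbered arrays from their group means correlated at 0.0357, 0.0102 and -0.0316 across genes, and Lig4mut replicate 2 correlated best with WT replicate 3. With the replicate block 0 genes and 0 probe sets passed, 0 of them among the 9 genes, and Rbl2 stayed at -1.70 (limma, adjusted p = 0.302).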
